A study of Mus musculus with 11 samples.

Results

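Lung tumors and normal lungs taken 7 months after NNK were compared by RNA sequencing in 3 mice, which gave 6 of the 11 libraries of the study. The members were chosen by their labels: libraries labelled 7 months, paired by mouse. Mouse m350 gave a tumor tagged ADN and a normal lung, and mice m372 and m378 each gave a tumor tagged ADC and a normal lung. The labels do not spell out these tags, so they are used as given. All 3 mice lacked Gprc5a (Gprc5a-/-) and had received NNK, so the normal lungs carry both as well. NNK (nicotine-derived nitrosamine ketone) is a carcinogen of tobacco smoke and was injected into the peritoneum at 50 mg/kg, 3 times a week for 8 weeks. Lungs without NNK or with intact Gprc5a were not analysed here. The other 5 libraries of the study came from mouse m335 at 4 months (a normal lung, an ADN and an ADC tumor) and mouse m368 at 6 months (a normal lung and an ADN tumor). The sources used here state neither sex nor age.

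Gprc5a encodes an orphan receptor that retinoic acid induces in the airway and alveolar epithelium. Mouse lung tumors after nitrosamines commonly arise from alveolar type 2 cells, the cells that make surfactant and that renew the thin alveolar type 1 cells. Signaling from receptors such as the EGF receptor through RAS and the MAP kinases is a known driver of such tumors, and its activity is often read from feedback genes of the DUSP and Sprouty families and from ETV transcription factors. Normal lung tissue holds a large capillary bed, fibroblasts, resident macrophages and circulating blood cells beside the epithelium.

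The smallest library was the normal lung of m372, with a total count of 19938822, and the largest the tumor of m372, with 46987587. Rn45s, a precursor of ribosomal RNA, took 14.98% to 19.2% of them. Gprc5a (chromosome 6, 135065662 to 135084708, GRCm38) stood at 0.364 CPM (counts scaled to library size, with TMM factors) or less in each of the 6 libraries and was too low to test. The surfactant gene Sftpc and the alveolar type 1 gene Ager were high in all 6, so the defining markers of lung were present. Some normal lungs also held RNA of neighbouring tissue. The thymocyte gene Rag1 stood at 19.1, 216 and 0.141 CPM in the normal lungs of m350, m372 and m378, and at 0.0366 CPM or less in the tumors. The skeletal muscle list summed to 15.9, 86.8 and 155 CPM in those normal lungs and to 6.08, 21.8 and 6.25 CPM in the tumors.

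Across the 3 mice, tumors differed from their paired normal lungs in a large share of the genes tested. Surfactant genes, ligands of the EGF receptor, feedback genes of the MAP kinase pathway and genes of amino acid supply were higher. Genes of blood vessels, fibroblasts, mesothelium, blood cells, lymphocytes and the interferon response were lower. Of 15148 genes tested, 3040 had an adjusted p under 0.05 (20.1%) when edgeR's quasi-likelihood model compared tumor and lung within mice. Of these 1345 were higher in tumors (8.88%) and 1695 were lower (11.2%). The sign was the same in all 3 mice for 1344 of the higher genes, with Dlk1 (named after its values were seen) the exception, and for all 1695 lower ones. The calls come from these same 3 pairs, so this agreement is largely built in and is a description only. A change of at least 4-fold was reached by 122 higher genes (0.805%) and 536 lower genes (3.54%). The 3 tumors all lay above the 3 normal lungs for 3010 of the genes tested (19.9%) and all below them for 3115 (20.6%).

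The number of calls depended on how the spread was estimated. With the spread estimated over all 11 libraries, 467 of 16169 genes passed for the same contrast (2.89%), 84 higher (0.520%) and 383 lower (2.37%). Scaling by library totals in place of TMM moved the median log2 fold change of all genes to -0.23 and split the calls into 741 higher and 2354 lower.

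Etv4 (chromosome 11, 101769748 to 101785310), an ETS transcription factor induced by MAP kinase signaling, stood at 0.637, 0.878 and 0.565 CPM in the normal lungs of m350, m372 and m378 and at 20.8, 20.4 and 33.7 CPM in their tumors. The groups were far apart, and the log2 fold change was 5.16 ± 0.33 (SE) with an adjusted p of 0.000363. Ptprn2 (chromosome 12, 116485720 to 117278167), a membrane protein of secretory granules, went from 2.25, 2.86 and 2.12 CPM to 76.1, 150.1 and 197 CPM. Every tumor was far above every normal lung, and the log2 fold change was 5.78 ± 0.32 (adjusted p = 0.000363). Ros1, a receptor tyrosine kinase, was at 1.58, 5.22 and 2.40 CPM in normal lungs and at 24.3, 60.0 and 79.3 CPM in tumors (log2 fold change 4.17 ± 0.32, adjusted p = 0.000684). Where the mean level was 5 CPM or more and the sign the same in all 3 mice, Slc35f1, a solute carrier, had the largest rise, 5.95 ± 0.58 on the log2 scale, from at most 0.182 CPM to at least 5.02 CPM. Others among the 12 largest rises were Fut2, a fucosyltransferase of mucin-type glycans (4.06 ± 0.53), Pik3c2g, a phosphoinositide kinase (3.69 ± 0.31), Ankrd22 (4.59 ± 0.59) and the unannotated transcript 9330188P03Rik (4.91 ± 0.32). Spag11b, a defensin-like gene with close paralogs among which reads may be split, rose by 4.54 ± 0.52.

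Myh7, a slow muscle and cardiac myosin heavy chain, was also among them. It stood at 17.3, 80.7 and 52.7 CPM in normal lungs and at 774, 1357 and 544 CPM in the tumors of m350, m372 and m378 (log2 fold change 4.29 ± 0.46, adjusted p = 0.00288). The cardiac troponin gene Tnni3 had 0, 22.9 and 0.160 CPM in these tumors and 0.395, 2.17 and 0.396 CPM in the normal lungs, so it was higher in the tumor of m372 and lower in the other 2. The whole cardiac list, Myh7 included, summed to 48.3, 177 and 101 CPM in the normal lungs and to 823, 2203 and 671 CPM in the tumors. Of its 11 tested members Myh7, Myh6 (3.65 ± 0.36) and the calcium channel Ryr2 (2.29 ± 0.62) rose and none fell, and the list's median paired change was 0.61 in m350, 2.66 in m372 and -1.51 in m378. The part of cardiac tissue in the rise of Myh7 was not tested. Myh7 has a close paralog in Myh6 and an antisense transcript, Mhrt, whose reads cannot be told apart from it here because the sources used here do not state whether strand was used in counting.

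**Figure D1:**
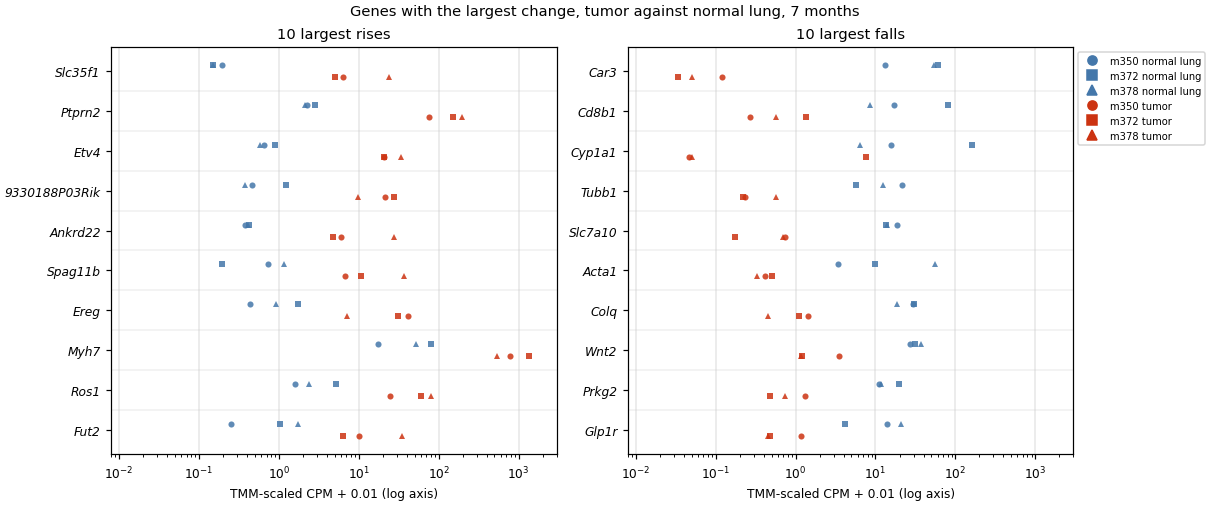
Level of each of the 10 largest rises (left) and 10 largest falls (right) in the 6 libraries, as TMM-scaled CPM plus 0.01 on a log axis. Blue points are normal lungs, red points are tumors and the shape marks the mouse; in each gene the 3 tumors lie wholly above (left) or below (right) the 3 normal lungs, except that the tumor of m372 lies between normal lungs for Cyp1a1.

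The largest falls included genes of fat, T cells, platelets, muscle and the lung mesenchyme. Car3 (chromosome 3, 14863538 to 14872373), a carbonic anhydrase of fat and muscle, went from 13.2, 61.5 and 53.3 CPM to 0.110, 0.0236 and 0.0400 CPM. It was close to absent in every tumor, and the log2 fold change was -9.51 ± 0.57 (adjusted p = 0.000405). The adipocyte list summed to 184, 279 and 296 CPM in normal lungs and to 109.8, 118 and 125 CPM in tumors, and 8 of its 14 tested members fell; the part of fat tissue in the fall of Car3 was not tested. Acta1, the actin of skeletal muscle, fell by 4.93 ± 0.96 on the log2 scale, beside the skeletal muscle sums given above. Wnt2 (chromosome 6, 17988940 to 18030445), a ligand made by lung mesenchyme, stood at 27.1, 31.2 and 37.4 CPM in normal lungs and at 3.48, 1.18 and 1.16 CPM in tumors. The highest tumor was far below the lowest normal lung (log2 fold change -4.19 ± 0.45, adjusted p = 0.00220). Colq, which anchors acetylcholinesterase, changed by -4.80 ± 0.28, Slc7a10, a neutral amino acid transporter, by -5.02 ± 0.45, Glp1r, the receptor of glucagon-like peptide 1, by -4.02 ± 0.53, and Ackr4, a scavenging chemokine receptor, by -4.00 ± 0.41. Cyp1a1, a cytochrome P450 that activates carcinogens, was at 15.8, 162 and 6.45 CPM in normal lungs and at 0.0366, 7.71 and 0.0400 CPM in tumors (log2 fold change -5.30 ± 0.66, adjusted p = 0.00895).

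Most of the listed genes of alveolar type 2 cells rose. Of 21 tested genes of surfactant, lamellar bodies and type 2 identity, 14 were higher and none was lower, with a median log2 fold change of 1.10; over all genes tested the median was 0.0019. Sftpa1, a surfactant protein of innate defense, stood at 6239, 7950 and 6447 CPM in normal lungs and at 20119, 24275 and 20099 CPM in tumors. The groups did not overlap, and the log2 fold change was 1.65 ± 0.21 (adjusted p = 0.00191). Ctsh, a protease that processes surfactant proteins, rose by 2.12 ± 0.19, Cxcl15, a chemokine of lung epithelium, by 1.85 ± 0.25 and Sftpb by 1.44 ± 0.24. Sftpc rose by 1.10 ± 0.23 and the transcription factors Cebpa and Nkx2-1 by 1.64 ± 0.22 and 0.91 ± 0.16. The other 7 did not pass. Among them Hc, the complement component C5, had a log2 fold change of 0.59 ± 0.22 (adjusted p = 0.108). Fabp5, a fatty acid binding protein named after its values were seen, was the member for which the tumors lay wholly below the normal lungs (-0.64 ± 0.23, adjusted p = 0.0973). With the spread of all 11 libraries 2 of the 21 passed.

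Alveolar type 1 genes went mostly the other way. Of 17 tested, 7 fell and 2 rose (median -0.76). Cav1, the coat protein of caveolae, went from 835, 635 and 666 CPM to 184, 126 and 104 CPM. The groups were far apart (log2 fold change -2.40 ± 0.19, adjusted p = 0.000490). Hopx, Spock2 and Vegfa fell by 1.74 ± 0.22, 2.01 ± 0.19 and 1.47 ± 0.21 on the log2 scale. Cav1 and Vegfa are also made outside type 1 cells. Ager, the receptor that marks type 1 cells most strongly, stood at 2000, 1701 and 1904 CPM and at 1289, 1284 and 971 CPM, a change of -0.67 ± 0.20 that did not pass (adjusted p = 0.0533). Aqp5, a water channel shared with other epithelia, rose by 1.05 ± 0.23.

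Genes of epithelial identity and of the keratin 8 state, a transitional state of alveolar cells after injury, were higher. Of 19 genes of that state 8 rose and none fell (median 0.88), among them Krt8 (1.40 ± 0.16), Krt18 (1.48 ± 0.20) and the chaperone Clu (1.49 ± 0.20). Without mouse m372, 4 of the 19 passed, and with the spread of all 11 libraries 1 did. Among 15 regulators of the epithelial-mesenchymal transition, 5 rose and 4 fell. The adhesion genes Cdh1 and Epcam rose by 1.21 ± 0.16 and 1.67 ± 0.15, and the epithelial regulators Grhl2 and Esrp1 by 1.54 ± 0.16 and 1.81 ± 0.17. Zeb1, a repressor of epithelial genes, went from 58.7, 48.6 and 57.3 CPM to 19.6, 15.5 and 11.7 CPM (log2 fold change -1.84 ± 0.19, adjusted p = 0.000952), and Zeb2 and Snai2 fell by 1.20 ± 0.17 and 1.18 ± 0.31. Zeb1 and Zeb2 are also expressed by fibroblasts, endothelium and lymphocytes, whose genes fell too, as described below in the stromal and immune lists. The part of these cells in the fall of Zeb1 and Zeb2 was not tested.

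Junction genes moved in both directions. Epithelial claudins Cldn3 and Cldn7 rose by 1.43 ± 0.19 and 1.28 ± 0.16, while Cldn5 of endothelium fell by 3.02 ± 0.26. In all 7 of 21 genes of tight junctions rose and 3 fell. Of 14 connexins 6 rose and 3 fell. Gja5, a connexin of arteries, was at 79.5, 94.4 and 75.2 CPM in normal lungs and at 23.1, 30.9 and 24.2 CPM in tumors, with no overlap (log2 fold change -1.68 ± 0.15, adjusted p = 0.000669). Gja4, also arterial, fell by 1.44 ± 0.15. Gja3, a connexin best known from the lens, had 0, 1 and 0 counts in the normal lungs of m350, m372 and m378 and 98, 33 and 173 counts in their tumors.

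Many ligands and receptors of the EGF family and many output genes of the MAP kinase pathway were higher. Of 14 tested ligands, receptors and regulators of the EGF receptor 7 rose and none fell (median 0.58). Fitted with the spread of all 11 libraries, 1 of 15 passed. Areg (amphiregulin) stood at 4.74, 13.3 and 4.01 CPM in normal lungs and at 29.5, 51.2 and 14.4 CPM in tumors. The lowest tumor, that of m378, was just above the highest normal lung, that of m372, and within each mouse the tumor was higher (log2 fold change 2.14 ± 0.22, adjusted p = 0.000895). Ereg (epiregulin) went from 0.425, 1.71 and 0.905 CPM to 40.9, 31.1 and 7.13 CPM (4.49 ± 0.79, adjusted p = 0.0237). Tgfa and Btc, further ligands, rose by 1.61 ± 0.16 and 2.15 ± 0.41, and the receptors Erbb2 and Erbb3 by 0.85 ± 0.15 and 1.45 ± 0.18. Egfr itself was at 8.59, 12.3 and 7.72 CPM in normal lungs and at 9.30, 3.09 and 1.88 CPM in tumors, a change of -1.31 ± 0.49 that did not pass (adjusted p = 0.113).

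Of 18 genes of MAP kinase output 10 rose and none fell (median 0.93), and 3 passed with the spread of all 11 libraries. Spred1 and Spry2, feedback inhibitors, rose by 1.76 ± 0.16 and 1.62 ± 0.16. Dusp4 and Dusp6, phosphatases of MAP kinases, rose by 2.10 ± 0.33 and 0.69 ± 0.15. Egr1, another output gene named after its values were seen, did not pass. On the scale of all 11 libraries its paired changes were -0.66, -0.15 and -0.01 in m350, m372 and m378. Among 23 immediate early response genes 7 fell and none rose (median -0.51), and 2 passed with the spread of all 11 libraries. In the core of the MAP kinase pathway 1 of 22 genes rose, the adaptor Shc1 (1.09 ± 0.17), and 3 fell. Over all genes tested 8.88% rose and 11.2% fell, so these counts are near the general share. Of 22 targets of p53, 7 rose and 3 fell. The cell cycle inhibitor Cdkn1a and the RNA-binding protein Zmat3 rose by 1.05 ± 0.23 and 1.52 ± 0.16, Sesn1 and Fas fell by 1.04 ± 0.19 and 1.49 ± 0.22, and Trp53 had a change of 0.17 ± 0.21. Mutations in these genes were not analysed here.

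Genes of the cell cycle did not pass the test in either direction. None of 32 proliferation genes passed in edgeR or in DESeq2, and in edgeR 0 had an unadjusted p under 0.05. Mki67, a marker of dividing cells, stood at 17.1, 62.6 and 14.4 CPM in the normal lungs of m350, m372 and m378 and at 20.7, 21.3 and 33.7 CPM in their tumors. The highest value was the normal lung of m372, the library with the highest thymocyte genes. The list's median paired change was 0.29 in m350, -1.03 in m372 and 0.99 in m378, and without mouse m372 2 of its members passed, both higher. Cdkn2a, an inhibitor lost in many tumors, was at 1.85, 1.52 and 4.07 CPM in normal lungs and at 7.84, 5.14 and 4.76 CPM in tumors (1.36 ± 0.48, adjusted p = 0.0947).

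**Figure D2:**
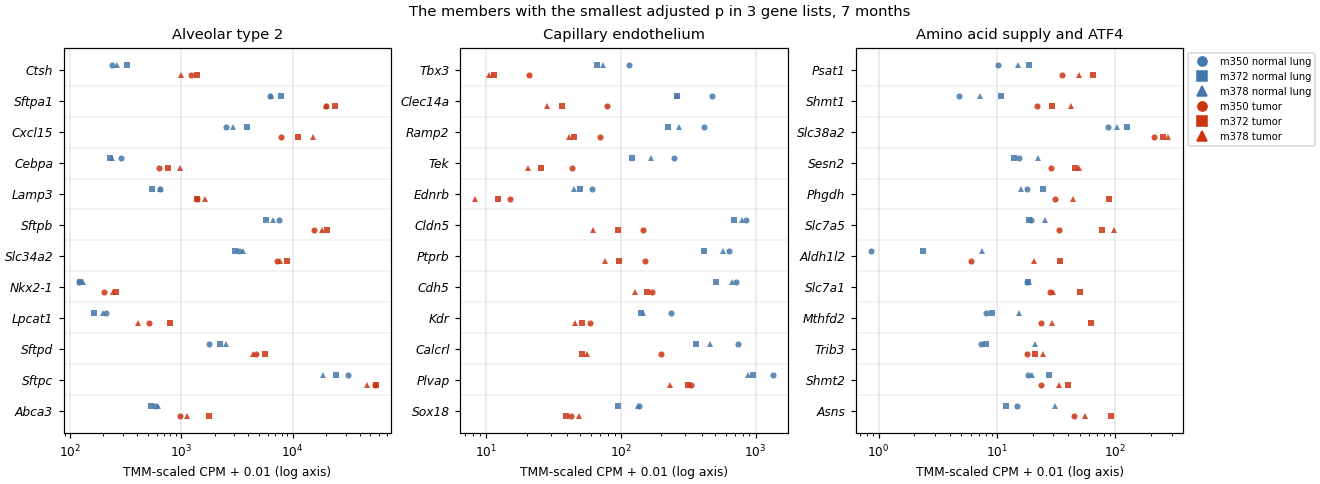
Level of up to 12 members with the smallest adjusted p in the lists of alveolar type 2 cells, capillary endothelium and amino acid supply, as TMM-scaled CPM plus 0.01 on a log axis. Blue points are normal lungs, red points are tumors and the shape marks the mouse; the capillary genes of the 3 tumors lie below those of all 3 normal lungs.

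Genes of amino acid supply were higher, and those of cholesterol synthesis were lower. Of 25 genes of serine synthesis, amino acid transport and the ATF4 stress response 12 rose and none fell (median 0.93). Psat1, an enzyme of serine synthesis, went from 10.1, 18.7 and 15.1 CPM to 35.1, 65.0 and 49.2 CPM (log2 fold change 1.76 ± 0.15, adjusted p = 0.000626). Phgdh, the first enzyme of that path, rose by 1.36 ± 0.22, Shmt1 by 2.06 ± 0.25, and the amino acid transporters Slc7a5 and Slc38a2 by 1.59 ± 0.27 and 1.25 ± 0.16. Psph, the last enzyme, did not pass (0.05 ± 0.20). Fitted with the spread of all 11 libraries, 2 of the 25 passed. The median paired change was 1.36 in m372, against 0.60 in m350 and 0.67 in m378. Of 36 nuclear genes of oxidative phosphorylation 4 rose and none fell, against 8.88% higher and 11.2% lower over all genes tested. The tumors lay wholly above the normal lungs for 18 of the 36 and wholly below for 0, against 19.9% and 20.6% of all genes tested. None of the 36 passed in edgeR with the spread of all 11 libraries, where 1 had an unadjusted p under 0.05.

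Genes of the unfolded protein response, which raises folding capacity in the secretory path, were modestly higher. Of 20 tested 9 rose and none fell (median 0.53). The tumors lay wholly above the normal lungs for 14 of the 20, against 19.9% of all genes tested. Hspa5, an abundant chaperone of the endoplasmic reticulum, stood at 362, 292 and 402 CPM and at 562, 534 and 608 CPM (0.70 ± 0.17, adjusted p = 0.0245). Pdia6, a disulfide isomerase, rose by 0.81 ± 0.16. The median paired change was 0.46 in m350, 0.52 in m372 and 0.56 in m378. Without mouse m372 no member passed in edgeR, with 11 at an unadjusted p under 0.05. Without m378 3 passed, and with library totals 2. None passed in edgeR with the spread of all 11 libraries, where 3 had an unadjusted p under 0.05.

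The promoters of Hspa5 and Pdia6 are shown because both rose and hold the endoplasmic reticulum stress element, bound by ATF6 and NF-Y. It was searched as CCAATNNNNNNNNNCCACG on both strands of the RefSeq promoter windows of GRCm38.p6, which run from 250 bases before to 50 bases after the gene start. It was found for 7 of 17 list members with a window and for 3 of the 7 such members that rose, against 0.2% of 11516 tested genes with a window and 0.1% of all 32851 windows. The Hspa5 window is chr2:34771840-34772139 on the + strand and the Pdia6 window is chr12:17266339-17266638 on the + strand; capitals mark the element.
Hspa5: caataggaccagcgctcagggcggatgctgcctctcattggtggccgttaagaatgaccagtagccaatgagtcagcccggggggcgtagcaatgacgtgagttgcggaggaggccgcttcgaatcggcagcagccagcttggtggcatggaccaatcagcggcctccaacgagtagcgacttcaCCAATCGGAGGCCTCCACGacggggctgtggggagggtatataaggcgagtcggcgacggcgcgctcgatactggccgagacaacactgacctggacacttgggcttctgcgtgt
Pdia6: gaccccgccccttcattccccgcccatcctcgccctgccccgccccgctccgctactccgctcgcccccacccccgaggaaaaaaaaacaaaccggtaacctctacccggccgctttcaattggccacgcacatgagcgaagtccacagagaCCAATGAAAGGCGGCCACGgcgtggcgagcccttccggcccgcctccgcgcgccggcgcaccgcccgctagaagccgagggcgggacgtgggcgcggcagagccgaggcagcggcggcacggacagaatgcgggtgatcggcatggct

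Of 21 genes of cholesterol synthesis and uptake 12 fell and none rose (median -0.99). Fitted with the spread of all 11 libraries, 2 of 22 passed. Sqle, which oxidizes squalene, went from 44.3, 38.4 and 48.5 CPM to 20.2, 11.6 and 9.37 CPM, with no overlap (log2 fold change -1.74 ± 0.25, adjusted p = 0.00363). Idi1 and Cyp51 fell by 1.44 ± 0.20 and 1.28 ± 0.22. Hmgcs1, which acts early in the path, did not pass (-0.22 ± 0.16). The sterol response element, searched as TCACNCCAC on both strands, was in the window of 1 of 14 members with a window (Hmgcs1) and of none of the 9 such members that fell, against 1.4% of tested genes. Fatty acid synthesis was mixed, with 8 of 22 higher and 5 lower. Acaca, which makes malonyl-CoA, and Acsl4, which activates arachidonic acid, rose by 1.26 ± 0.19 and 1.44 ± 0.17, while the desaturase Fads1 fell by 1.08 ± 0.18.

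Of 21 cytochrome P450 and flavin oxidase genes 10 fell and none rose (median -1.62). Fmo1 was at 215, 132 and 153 CPM in normal lungs and at 30.9, 15 and 10.5 CPM in tumors (log2 fold change -3.26 ± 0.24, adjusted p = 0.000461). Cyp4b1, which oxidizes fatty acids and some toxicants, and Cyp26b1, which degrades retinoic acid, fell by 3.26 ± 0.29 and 3.10 ± 0.27. Lrat, which stores retinol as esters, fell by 2.76 ± 0.15, while Rbp4, the plasma carrier of retinol, rose by 2.15 ± 0.44.

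The vascular, fibroblast and mesothelial lists were lower. All 25 tested genes of capillary endothelium lay wholly below the normal lungs in the tumors, against 20.6% of all genes tested. Of the 25 genes 22 passed, and the median log2 fold change was -1.90. In bulk tissue fewer cells of a type and less RNA per cell cannot be told apart. Cdh5, the cadherin of endothelium, went from 717, 512 and 669.7 CPM to 171, 155 and 127 CPM (log2 fold change -2.06 ± 0.20, adjusted p = 0.000760). Tek, the angiopoietin receptor, Ramp2 and Clec14a fell by 2.59 ± 0.20, 2.53 ± 0.17 and 2.88 ± 0.19. With the spread of all 11 libraries 18 of the 25 passed. Car4, a carbonic anhydrase of a capillary subtype, fell least among those named, by 0.94 ± 0.24.

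Genes of large vessels and lymphatics also fell, 10 of 20, among them Vwf (-2.28 ± 0.16), Sema3g (-2.95 ± 0.18) and the lymphatic receptor Lyve1 (-2.75 ± 0.21). The 2 of that list that rose, Eln (elastin, 1.80 ± 0.29) and Dkk2 (a Wnt modulator, 4.04 ± 0.52), are not restricted to endothelium. Of 25 fibroblast genes 13 fell and 1 rose (median -1.41). Inmt, a methyltransferase of alveolar fibroblasts, stood at 1594, 1536 and 1644 CPM in normal lungs and at 203, 141 and 156 CPM in tumors, far apart and with little spread within each group (log2 fold change -3.27 ± 0.20, adjusted p = 0.000363). Fgfr4, Itga8 and Col13a1 fell by 3.68 ± 0.23, 2.93 ± 0.22 and 2.79 ± 0.29. The fibrillar collagens did not follow: Col1a1 stood at 139, 187 and 131 CPM and at 141, 164 and 173 CPM, a change of 0.08 ± 0.17. Col1a2 and Col3a1 had changes of -0.33 ± 0.16 and -0.21 ± 0.23. Of 10 mesothelial genes 6 fell, including Upk3b (-2.07 ± 0.23) and Msln (-1.75 ± 0.35).

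In the Wnt, TGF-beta and BMP, and Notch lists more members fell than rose. In the Wnt list 12 of 28 fell and 3 rose (median -1.30): beside Wnt2, the ligand Wnt3a fell by 2.34 ± 0.31, the potentiator Rspo1 by 2.37 ± 0.34 and the target Axin2 by 1.35 ± 0.17. In the TGF-beta and BMP list 13 of 33 fell and 7 rose. Bmp6 went from 210.2, 98.1 and 120.4 CPM to 17.9, 7.71 and 5.0 CPM (log2 fold change -3.92 ± 0.25, adjusted p = 0.000363). The endothelial receptors Acvrl1 and Eng fell by 2.58 ± 0.20 and 2.41 ± 0.22, and Inhbb, a subunit of activin, rose by 1.92 ± 0.19. In the Notch list 9 of 18 fell and 2 rose, and the endothelial genes Dll4, a ligand, and Notch4, a receptor, changed by -1.89 ± 0.15 and -1.65 ± 0.17.

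Genes of blood cells fell steeply. Hbb-b1, a beta-globin, stood at 4384, 5404 and 3817 CPM in normal lungs and at 539, 354 and 675 CPM in tumors (log2 fold change -3.15 ± 0.31, adjusted p = 0.000896). The globin genes have near-identical copies among which reads may be split, and all 11 called members of the 13 in the erythrocyte list were lower. Alas2, an enzyme of heme synthesis outside that family, fell by 2.98 ± 0.28. Of 14 platelet genes 11 fell and none rose (median -2.95), with Tubb1 at 21.5, 5.73 and 12.3 CPM in normal lungs and 0.220, 0.212 and 0.560 CPM in tumors. Pf4, a platelet chemokine, did not pass (1.03 ± 0.86, adjusted p = 0.510): the tumor of m378 stood at 95.0 CPM and the other 5 libraries between 10.9 and 16.6 CPM. In edgeR with the spread of all 11 libraries 1 of 13 erythrocyte and 3 of 15 platelet genes passed, all lower. The erythrocyte list's median paired change in the earlier mice was -4.40 and -0.39 in the ADN tumors of m335 and m368. It was -4.12 in the ADC tumor of m335.

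Interferon-induced genes were lower in the tumors of all 3 mice. Of 24 tested 19 fell and none rose (median -1.70). For 23 of the 24 the tumors lay wholly below the normal lungs, against 20.6% of all genes tested. Gbp4, an interferon-induced GTPase, stood at 33.8, 26.3 and 27.5 CPM in normal lungs and at 5.60, 3.79 and 4.80 CPM in tumors (log2 fold change -2.63 ± 0.19, adjusted p = 0.000412). Gbp2, another of these GTPases, went from 73.8, 43.9 and 63.0 CPM to 20.7, 12.9 and 12.5 CPM (-1.98 ± 0.18). Ifit1, Ifit2 and Ifit3, which bind viral RNA or its complexes, fell by 1.90 ± 0.30, 2.10 ± 0.35 and 1.78 ± 0.20, and Irf7, which amplifies the response, by 1.67 ± 0.21. The median paired change was -1.57 in m350, -1.44 in m372 and -1.60 in m378. None of the 24 passed in edgeR with the spread of all 11 libraries, where 6 had an unadjusted p under 0.05 and Gbp4 an adjusted p of 0.402.

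The windows of Ifit3 and Gbp2 are printed because these genes fell and hold the interferon-stimulated response element, bound by STAT and IRF factors. Searched as GAAANNGAAA on both strands, it was in the window of 10 of 16 list members with a window and of 8 of the 13 such members that fell, against 3.9% of tested genes and 3.4% of all windows. The Ifit3 window is chr19:34583279-34583578 and the Gbp2 window is chr3:142620413-142620712, both on the + strand of GRCm38.p6; capitals mark the matches, which lie on the opposite strand.
Ifit3: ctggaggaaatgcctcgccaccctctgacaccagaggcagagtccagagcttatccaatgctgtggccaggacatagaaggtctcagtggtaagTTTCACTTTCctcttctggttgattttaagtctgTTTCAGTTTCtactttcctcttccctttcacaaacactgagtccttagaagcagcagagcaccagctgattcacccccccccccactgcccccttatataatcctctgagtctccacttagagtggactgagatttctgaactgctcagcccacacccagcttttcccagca
Gbp2: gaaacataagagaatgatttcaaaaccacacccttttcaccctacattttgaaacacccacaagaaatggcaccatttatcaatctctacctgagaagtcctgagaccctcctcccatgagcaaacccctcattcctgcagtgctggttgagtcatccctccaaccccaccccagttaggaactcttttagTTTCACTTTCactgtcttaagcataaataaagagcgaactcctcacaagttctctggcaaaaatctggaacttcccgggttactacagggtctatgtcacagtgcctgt

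Genes of antigen presentation by MHC class I were lower too. Of 15 class I and peptide loading genes 9 fell and none rose (median -0.74). Psmb9, a subunit of the immunoproteasome, went from 63.5, 52.7 and 56.5 CPM to 33.8, 23.1 and 23.4 CPM (log2 fold change -1.12 ± 0.15, adjusted p = 0.00267). Tap1, the peptide transporter, and Nlrc5, an activator of class I genes, fell by 1.02 ± 0.18 and 1.40 ± 0.23. H2-Q7 fell by 1.78 ± 0.16, but the H2-Q genes are near-identical and reads may be split among them. The classical heavy chains H2-K1 and H2-D1 had changes of -0.49 ± 0.21 and -0.47 ± 0.21 that did not pass. Of 11 class II genes 1 rose, the invariant chain Cd74 (0.90 ± 0.23, adjusted p = 0.0325), and 2 fell, H2-Oa and H2-Ob, which B cells express, against 8.88% higher and 11.2% lower over all genes. With the spread of all 11 libraries 0 class II genes passed in edgeR and 0 had an unadjusted p under 0.05. None of the 15 class I genes passed in edgeR with the spread of all 11 libraries, where 2 had an unadjusted p under 0.05.

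Genes of lymphocytes fell. In the natural killer and cytotoxic list 10 of 13 fell (median -3.02), in the T cell list 13 of 21 (median -2.27) and in the B cell list 12 of 18 (median -1.90), and none of these lists had a member that rose. Prf1 (perforin) stood at 15.8, 4.16 and 10.1 CPM in normal lungs and at 1.21, 0.189 and 0.841 CPM in tumors (log2 fold change -3.87 ± 0.38, adjusted p = 0.000802). Ccl5, a chemokine of cytotoxic cells, and Gzmb fell by 3.02 ± 0.22 and 4.08 ± 0.49. Cd79a, of the B cell receptor, went from 152, 84.1 and 87.7 CPM to 27.0, 13.2 and 13.1 CPM (-2.63 ± 0.16, adjusted p = 0.000363). Cd3e, of the T cell receptor complex, went from 16.8, 35.4 and 13.5 CPM to 2.34, 3.61 and 4.68 CPM (-2.56 ± 0.37, adjusted p = 0.00432). The normal lung of m372 was the highest for Cd3e and held the most Rag1. Without mouse m372, 13 T cell, 8 cytotoxic and 9 B cell genes passed, all lower. In m378, whose normal lung had Rag1 at 0.141 CPM, the median paired change was -1.47 for the T cell list and -1.82 for the list of thymus genes. The part of thymus tissue in the fall of lymphocyte genes was not tested. With the spread of all 11 libraries 2 T cell, 1 cytotoxic and no B cell genes passed in edgeR, where 6 of the 18 B cell genes had an unadjusted p under 0.05.

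Myeloid genes divided. Of 18 genes of alveolar macrophages 9 rose and 1 fell (median 0.75). Chil3, a chitinase-like protein of these cells, stood at 879, 329 and 910.4 CPM in normal lungs and at 2884, 664 and 2101 CPM in tumors. The tumor of m372 was below the normal lungs of the other mice, and within each mouse the tumor was higher (1.31 ± 0.21, adjusted p = 0.00507). Atp6v0d2 and Ear2 rose by 1.47 ± 0.22 and 1.16 ± 0.17; Ear2 has close paralogs. Car4, also counted in the capillary list, was the member that fell. With the spread of all 11 libraries none of 19 passed in edgeR, with 7 at an unadjusted p under 0.05. In the earlier mice the list's median paired change was -0.40 and -1.06 in the ADN tumors of m335 and m368 and 0.44 in the ADC tumor of m335. Of 13 neutrophil genes 8 fell, with S100a9 at 75.9, 28.6 and 267 CPM in normal lungs and 16.7, 1.86 and 41.6 CPM in tumors (-2.88 ± 0.35, adjusted p = 0.00310); without the mouse block 1 of them passed. Of 20 genes of monocytes and interstitial macrophages 2 rose and 3 fell (median -0.24). Over all genes tested 8.88% rose and 11.2% fell, so these counts are near the general share. In that list Ccr2 and Plac8 fell by 1.60 ± 0.18 and 1.61 ± 0.17, and Arg1 rose by 1.82 ± 0.28.

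Among secreted factors single genes rose and fell. Of 32 chemokines and cytokines 7 rose and 6 fell, against 8.88% higher and 11.2% lower over all genes tested. Csf2 (GM-CSF, which sustains alveolar macrophages) went from 2.88, 2.49 and 3.08 CPM to 11.8, 11.7 and 9.65 CPM (log2 fold change 1.97 ± 0.29, adjusted p = 0.00339). Ccl17, a ligand of CCR4, and Lcn2, an iron-binding protein of inflamed epithelium, rose by 1.87 ± 0.26 and 1.26 ± 0.21. Csf1 fell by 1.67 ± 0.16. Among 20 immune checkpoint genes Cd276 and Nectin2, a ligand of TIGIT, rose by 1.69 ± 0.24 and 1.21 ± 0.19, and Vsir fell by 1.49 ± 0.15. Cd274 (PD-L1) was at 25.0, 14.3 and 17.4 CPM and at 15.7, 11.4 and 18.7 CPM, with overlapping groups (-0.30 ± 0.21, adjusted p = 0.378). Il6 was at 1.06 CPM or less in every library, and Stat3 had a change of 0.08 ± 0.16.

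The 3 tumors differed from each other in airway genes. The club cell list summed to 4038, 26741 and 8917 CPM in the normal lungs of m350, m372 and m378 and to 14036, 4713 and 2104 CPM in their tumors. Scgb1a1, the secretoglobin of club cells, followed this, at 1760, 20606 and 6251 CPM in normal lungs and 9720, 1257 and 1159 CPM in tumors. It was higher in the tumor of m350 and lower in the other tumors, and the fit gave -1.74 ± 2.04 (adjusted p = 0.654). Ciliated genes did the same, with a median paired change of 2.96 in m350, -3.77 in m372 and -1.01 in m378. Cyp2a5 and Cckar, among the genes whose change in m350 departed most from the other pairs, went the same way; Cyp2a5 has a close paralog among whose copies reads may be split. The normal lungs also differed among themselves in these lists, and the airway share of each tissue piece was not tested.

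Among the genes whose change departed most in m372 were Meg3 and Rian, noncoding RNAs of an imprinted cluster on chromosome 12. Rian stood at 61.0 and 309 CPM in the tumors of m350 and m378, at 0.778 CPM in the tumor of m372 and at 1.99 to 2.58 CPM in normal lungs. Those departing most in m378 were Tmem252, Apoc1, Chia1 and Cyp1b1. Chia1, a chitinase, was at 1257 and 1332 CPM in the tumors of m350 and m372 but at 86.8 CPM in that of m378, against 99.8 to 192 CPM in normal lungs. Cyp1b1 was at 131 CPM in the tumor of m378 and at 13.5 CPM or less elsewhere. Across the 15148 genes the paired changes correlated with Pearson's r of 0.690 between m372 and m378, 0.499 between m350 and m378 and 0.344 between m350 and m372. These are over genes, which are not independent, and m350 is also the mouse with the ADN tag, so tag and mouse cannot be told apart.

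**Figure D3:**
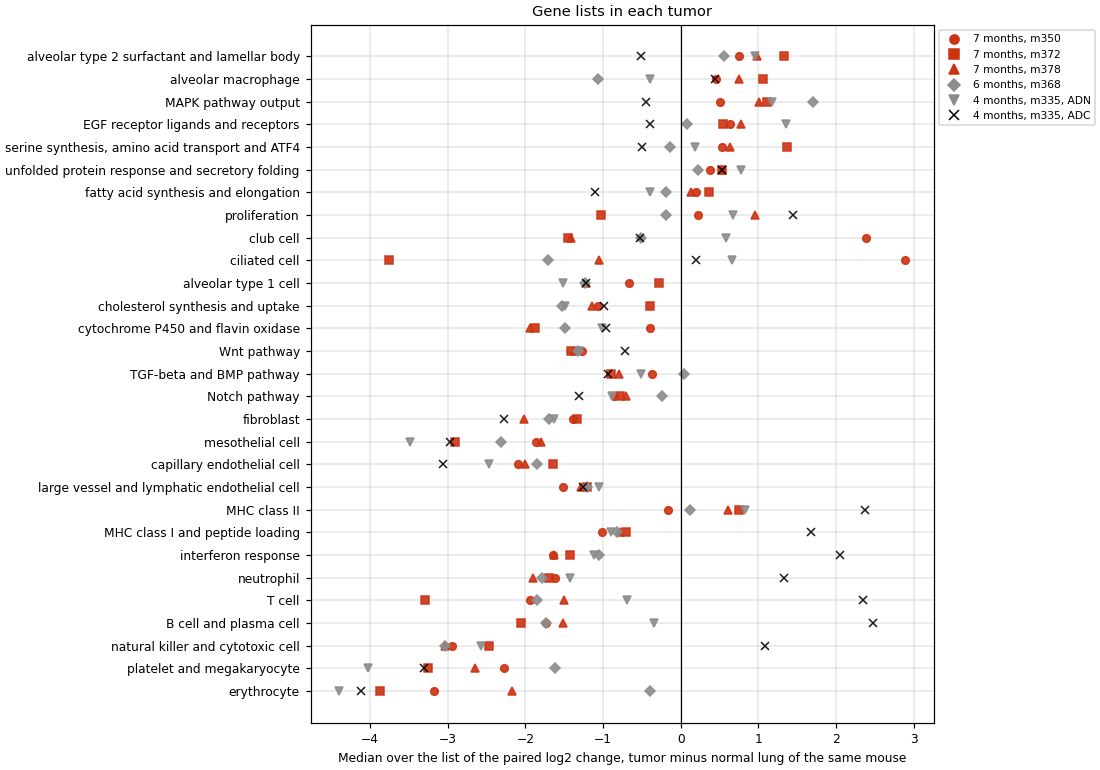
Median over each gene list of the paired log2 change, tumor minus the normal lung of the same mouse, on the scale of all 11 libraries. Red symbols are the 3 tumors at 7 months, grey symbols the ADN tumors of m368 (6 months) and m335 (4 months) and black crosses the ADC tumor of m335; the red symbols of the capillary and interferon lists lie close together, and those of the club and ciliated lists lie on both sides of 0.

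The mice taken at 4 and 6 months, which share no library with these, were used to see whether the changes recur and whether they differ. Of 3031 genes called at 7 months and tested there, 2714 had the same sign (89.5%), against 65.6% of the 11963 that were not called. For single tumors the share was 94.2% in the ADN tumor of m335, 85.5% in the ADN tumor of m368 and 66.3% in the ADC tumor of m335. The correlation of the log2 fold changes over 14994 genes was 0.625, as a description. The test in these 5 libraries itself called no gene of 15617 (0%) with edgeR, with 1651 at an unadjusted p under 0.05 and 829 called by DESeq2. Without the ADC tumor of m335 edgeR called 545.

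The test of the difference, 7 months minus 4 and 6 months, also called no gene of 16169 (0%), with 483 at an unadjusted p under 0.05 and 24 called by DESeq2. Time, mouse and the mix of tags cannot be told apart in it. The genes with the smallest p there, none of which passed, were Hc, Ncmap, C6, Galc, Kcnj2 and Fam107b. C6, a complement component, had a difference of 3.05 on the log2 scale: it rose at 7 months by 1.41 ± 0.21 and had -1.67 in the earlier mice. Kcnj2, an inward rectifier potassium channel, had a difference of 2.30, with a rise of 2.10 ± 0.18 at 7 months and -0.24 earlier; each had an adjusted p of 1 for the difference.

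The lists of stroma had the same sign in all 6 tumors, and the interferon, MHC class I and lymphocyte lists did not. The capillary median was between -3.06 and -1.64 in every tumor. The interferon median was -1.64, -1.43 and -1.63 in the tumors of m350, m372 and m378, -1.11 and -1.05 in the ADN tumors of m335 and m368, and 2.05 in the ADC tumor of m335. For MHC class I these values were -1.01, -0.70, -0.78, -0.90, -0.82 and 1.68, and for the B cell list -1.74, -2.05, -1.51, -0.34, -1.74 and 2.48. That tumor thus stood alone against the other 5 in these lists, and no gene of the interferon list passed the edgeR test of the difference (with 0 at an unadjusted p under 0.05). The alveolar type 2 median was likewise positive in 5 tumors, from 0.56 to 1.33, and -0.51 in the ADC tumor of m335. Of the 19 interferon genes that fell at 7 months, 8 had the same sign in the fit of the earlier mice, against 22 of 22 capillary genes.

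**Figure D4:**
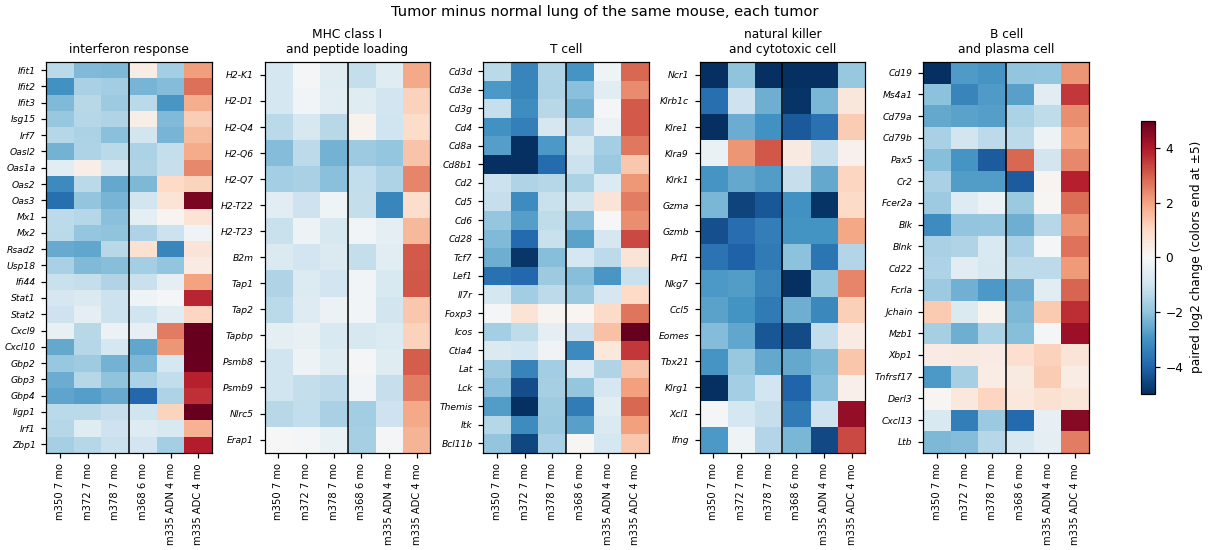
Paired log2 change of each tested gene of 5 immune lists in the 6 tumors, tumor minus the normal lung of the same mouse; blue is lower in the tumor, red is higher, and colors end at a change of 5 in either direction. The 3 columns left of the line are the 7 month tumors; the last column, the ADC tumor of m335, is mostly red where the other columns are mostly blue.

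**Figure D5:**
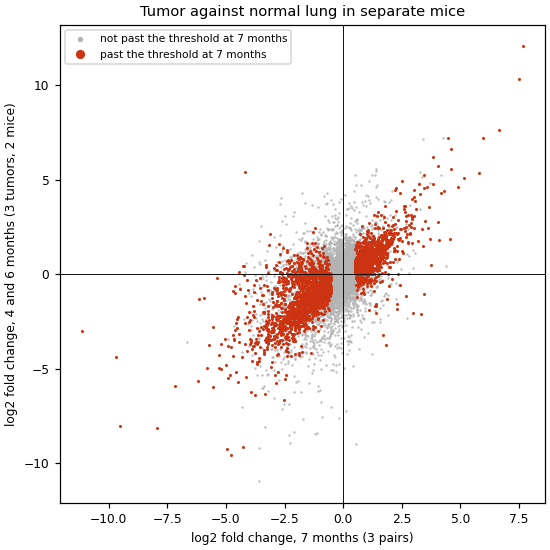
Log2 fold change of each gene tested at both times, at 7 months (horizontal, 3 pairs) and at 4 and 6 months (vertical, 3 tumors of 2 mice). Red points passed the test at 7 months; 89.5% of them have the same sign in the earlier mice.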

How the data were processed

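Lung RNA was extracted with miRNeasy reagents, poly-A selected and sequenced on an Ion Proton, per the labels' protocols. The deposited values are expected counts per RefSeq transcript; STAR 2.4.1d, Bowtie2 2.1.0, Partek and the build mm10 are named in the submitters' processing notes, while the sources used here state neither the annotation release nor the use of strand. The 36285 transcript rows were summed to 24515 genes and rounded. Genes were tested with edgeR 4.0.16 (R 4.3.3; TMM, filterByExpr, robust quasi-likelihood F test, two-sided, Benjamini-Hochberg adjustment over all genes tested, threshold 0.05) on the 6 libraries with the mouse as a fixed block, which leaves 2 residual degrees of freedom. The 5 libraries of 4 and 6 months were fitted alike, and the difference was tested over all 11. The SE is the log2 fold change divided by the square root of F. Paired log2 changes are differences of log2 CPM with a prior count of 2. The method was tested on simulated counts. DESeq2 1.42.0 and other scalings, filters and left-out libraries were tried as alternatives.

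The pairing comes from the mouse numbers in the labels. The correlation of each tumor's deviations with those of its own normal lung was -0.1215 in m350, -0.0001 in m372 and 0.1581 in m378. By this correlation the own normal lung ranked 3 of 3 in m350, 2 in m372 and 1 in m378. Each group holds 1 library per mouse and the mouse is a block. The p-values thus measure the spread between mice of the change from normal lung to tumor, with spread estimates that share information over genes. The members and the 61 gene lists were chosen with earlier results of these data known, and lists are described by counts only. Named genes are the 12 largest rises and falls with a mean of at least 5 CPM, of each list the 6 smallest adjusted p and the first 4 members, 13 fixed genes, the 6 smallest p of the difference, and for each mouse the 4 genes of at least 20 CPM that departed most from the other pairs. Some genes that this rule names are not reported here.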

Additional observations from a re-analysis of the deposited data

How the results depend on the processing

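The count of 3040 genes called at 7 months stayed within 1.5 times under other scalings, filters, DESeq2 and edgeR without robust estimation. It ran from 2901 (without robust estimation) to 3922 (DESeq2) in these, and was 467 with the spread of all 11 libraries. Without the replicate block 3166 were called. Leaving out 1 mouse gave 1864 (m372) to 3021 (m350). Without the block, 1612 were called when the normal lung of m350 was left out, 1841 without that of m378, 2293 without that of m372, and 2048 to 3900 when a tumor was left out. The 4 and 6 month comparison called 829 genes with DESeq2, and leaving out a tumor gave 0 to 545, the latter without the ADC tumor of m335. The difference called 24 with DESeq2, and leaving out libraries gave 0 to 449, the latter without mouse m335. The cause was not tested. Signs turned only for named genes that did not pass. With library totals Col1a1 had -0.16, Ncmap -0.14, Psph -0.18, Stat3 -0.15, Tnni3 -0.26 and Trp53 -0.06. Tnni3 had -0.01 without Rn45s and hemoglobin genes, -1.16 in DESeq2 and -0.45 with the spread of all 11 libraries, and Mki67 had 0.01 with no filter. Apoc1 had 1.08 without the block. Over the 3 left-out mice the log2 fold change ranged from -1.73 to 0.70 for Apoc1, -0.08 to 0.19 for Col1a1, -0.44 to 0.06 for Col3a1, -3.73 to 1.35 for Cyp2a5, -0.64 to 0.73 for Mki67, -0.16 to 0.32 for Ncmap, -0.02 to 0.13 for Psph, -0.02 to 0.20 for Stat3, -0.20 to 1.77 for Tmem252, -2.72 to 1.90 for Tnni3 and -0.01 to 0.48 for Trp53. Without the block and the normal lung of m350, Apoc1 had 1.10, Col1a1 -0.03, Il6 0.16, Ncmap -0.18 and Psph -0.03. Without that of m372, Apoc1 had 0.99, Cckar 0.21 and Mki67 0.65, and without that of m378, Apoc1 had 1.07 and Col1a1 -0.06. Without the block and the tumor of m350, Apoc1 had 1.56. Without that of m372, Apoc1 had 1.64, Il6 0.25, Psph -0.08 and Tnni3 -3.56, and without that of m378, Il6 had 0.27 and Tmem252 -0.11. With 3 mice and 2 residual degrees of freedom, small changes are not detectable, and genes under the count filter were not tested.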

Other observations

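Noncoding and coding genes of an imprinted cluster on chromosome 12 stood apart between tumors; Dlk1, Mirg and Rtl1 were chosen after their values were seen. Meg3 stood at 18.4 and 95.6 CPM in the 7 month tumors of m350 and m378, on the scale of all 11 libraries, and at 0.394 CPM in that of m372. In the ADN tumors of m335 and m368 it stood at 127 and 59.7 CPM, and in the ADC tumor of m335 at 4 CPM, against 0.715 to 4.28 CPM in the 5 normal lungs. Dlk1, a growth regulator of the same cluster, was at 10.1, 89.4, 63 and 99.6 CPM in the tumors of m350 and m378 and the ADN tumors of m335 and m368, and at 0.0696 CPM in that of m372. It was at 7.83 CPM in the ADC tumor of m335 and at 0.84 CPM or less in the normal lungs. Mirg was highest in the same 4 tumors, at 1.11 to 8.09 CPM, and Rtl1 did not reach 1 CPM in any library.

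The mucous and goblet list had a median paired change of 2.40 in m350, -0.82 in m372 and 0.12 in m378, and from 2.27 to 2.59 in the 3 tumors of 4 and 6 months. In the list of gastric, intestinal and hepatic endoderm 5 of 14 genes rose at 7 months and none fell, with a median paired change of 0.97 in m350, 0.44 in m372 and 0.76 in m378 on the same scale. Among those that rose were Gkn2, Alb, Foxa1 and Foxa2, of which the last 2 are also expressed in lung epithelium. Levels of the first 2 were low. On the scale of all 11 libraries Gkn2 stood at 6.46, 0.765 and 0.514 CPM in the tumors of m350, m372 and m378. Alb stood at 5.29, 2.83 and 6.8 CPM there. In the normal lungs of these mice Gkn2 was at 0.031 CPM or less and Alb at 0.498 CPM or less. For Gkn3, Ctse, Vil1 and Lgals4 (the last 3 named after their values were seen) the tumors lay wholly below the normal lungs, at 1.36 CPM or less, and none of these passed.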
